A study of Schizosaccharomyces pombe with 12 samples.

Results

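Divergent neighbouring protein-coding gene pairs of the fission yeast Schizosaccharomyces pombe are the places where a minus-strand gene is followed by a plus-strand gene, so that both genes are annotated as transcribed away from a common stretch of DNA. Members were found by the gene order of the deposited genome annotation alone: the coding genes of each nuclear chromosome were ordered by start, and every adjacent pair with the left gene on the minus strand and the right gene on the plus strand was kept. The rule gave 1406 divergent pairs among 5146 adjacent pairs of 5149 coding genes, and 2812 of those genes (54.6%, 95% Wilson interval 53.2 to 56) stood in one. The rest were 1404 convergent pairs, whose ends face each other, and 2336 pairs on the same strand.

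The study behind the annotation made 12 ChIP-exo libraries, a chromatin immunoprecipitation method that uses an exonuclease to sharpen the position of the recovered DNA, in 6 groups of 2. All strains carried the DSB-PpoI system, in which the homing endonuclease I-PpoI can be induced to cut a site placed in the genome, and all cultures were grown in full medium (YEA). RNA-DNA hybrids were recovered with the S9.6 antibody from Rnh1del-Rnh201del cells, which lack genes of both ribonuclease H enzymes, with PpoI ON (n = 2) and with PpoI OFF (n = 2). Ssb2, a component of the RPA complex that coats single-stranded DNA, was pulled down through its Flag tag from Rnh1del-Rnh201del cells with PpoI ON (n = 2), from pNmt1::Rnh1 cells, described as overexpressing Rnh1, with PpoI ON (n = 2), and from cells with no further change with PpoI ON (n = 2) and PpoI OFF (n = 2). The signal and depth of these libraries were not analysed here. Every value below describes the annotation and the genome sequence, has no replicates, and carries no test; intervals treat neighbouring pairs as independent.

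In a divergent pair the stretch between the starts can serve as the promoter of both genes. RNA polymerase II is loaded near each start, nucleosomes are commonly depleted there, and a transcription factor bound in between can act on either gene. In fission yeast the core histone genes are the textbook case, with an H2A gene beside an H2B gene and H3 genes beside H4 genes, read apart from 1 shared promoter.

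The sequences of the 4 core histone promoters are shown because they hold the clearest shared element. They are the whole stretches between RefSeq gene starts of ASM294v3, plus strand, 5′ to 3′, and capitals mark the letters AACCCT (or AGGGTT, the same letters on the other strand), which form the core of the histone box. The 4 stretches lie at III:1412182-1412358, I:4699600-4699731, II:1364985-1365118 and II:3529566-3529766.
hta1-htb1: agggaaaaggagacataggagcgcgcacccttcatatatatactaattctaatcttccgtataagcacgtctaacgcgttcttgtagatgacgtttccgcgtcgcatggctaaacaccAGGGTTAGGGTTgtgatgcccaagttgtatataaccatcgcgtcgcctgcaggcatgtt
hhf1-hht1: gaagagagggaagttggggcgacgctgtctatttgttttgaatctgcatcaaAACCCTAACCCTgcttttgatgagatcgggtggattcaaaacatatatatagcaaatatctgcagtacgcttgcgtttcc
hhf2-hht2: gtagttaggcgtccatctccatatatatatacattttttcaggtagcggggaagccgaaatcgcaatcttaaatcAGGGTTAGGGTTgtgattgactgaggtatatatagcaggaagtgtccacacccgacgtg
hht3-hhf3: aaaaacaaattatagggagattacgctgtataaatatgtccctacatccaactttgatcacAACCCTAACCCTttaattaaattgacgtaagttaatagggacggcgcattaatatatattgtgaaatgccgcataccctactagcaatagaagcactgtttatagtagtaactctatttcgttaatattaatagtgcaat

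Ribosomal protein genes that stand back to back are shown for the HomolD box, a promoter element of fission yeast ribosomal protein genes, here the exact letters CAGTCACA or TGTGACTG, in capitals. The stretches are whole between RefSeq starts for rps1602-rpl13 (I:1711083-1711184), rpl701-rps1402 (II:1792296-1792362), rpl35-rpl902 (III:89577-89779) and ubi2-rpl14 (I:2794776-2794900), and a part for rps2-rps20 (III:2096045-2096112).
rps1602-rpl13: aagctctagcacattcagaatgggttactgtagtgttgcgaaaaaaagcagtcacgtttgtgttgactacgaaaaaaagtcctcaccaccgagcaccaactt
rpl701-rps1402: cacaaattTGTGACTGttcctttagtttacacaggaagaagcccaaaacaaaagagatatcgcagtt
rpl35-rpl902: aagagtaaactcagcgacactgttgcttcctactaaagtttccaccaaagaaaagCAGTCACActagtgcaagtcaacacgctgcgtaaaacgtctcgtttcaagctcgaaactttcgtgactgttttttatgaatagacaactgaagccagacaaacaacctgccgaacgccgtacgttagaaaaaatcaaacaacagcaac
ubi2-rpl14: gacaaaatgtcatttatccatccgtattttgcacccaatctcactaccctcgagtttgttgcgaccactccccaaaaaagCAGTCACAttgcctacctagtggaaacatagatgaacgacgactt
rps2-rps20: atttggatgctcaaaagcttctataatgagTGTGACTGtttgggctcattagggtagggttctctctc

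Cell cycle and repair pairs are shown for the MCB element, ACGCGT, the site of the MBF factor that drives genes at the start of S phase, again in capitals. The stretch is a part of the space for cdt2-psc3 (I:2035744-2036038) and a part between the coding starts for ssb1-mik1 (II:221341-221370). The iron uptake pair fip1-fio1 (I:4234806-4234874, a part) is shown for the letters ATCTGATAA of a GATA element bound by the iron repressor Fep1, and psf2-arg6 (II:1229188-1229224, whole, no motif marked) because it is the divergent pair nearest to the break site.
cdt2-psc3: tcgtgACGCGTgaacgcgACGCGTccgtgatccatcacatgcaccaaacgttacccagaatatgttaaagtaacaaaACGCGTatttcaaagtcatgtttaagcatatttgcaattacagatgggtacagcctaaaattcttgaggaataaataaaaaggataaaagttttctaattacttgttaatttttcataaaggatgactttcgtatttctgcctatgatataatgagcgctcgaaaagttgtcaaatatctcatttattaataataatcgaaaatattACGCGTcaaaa
ssb1-mik1: aacgcgaACGCGTcatgACGCGTcgtaaca
fip1-fio1: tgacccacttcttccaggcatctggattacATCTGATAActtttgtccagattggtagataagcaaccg
psf2-arg6: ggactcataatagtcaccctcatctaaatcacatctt

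Divergent pairs were spread over all 3 chromosomes. Chromosome I held 641, chromosome II 520 and chromosome III 245, or 114.9, 114.5 and 99.9 per megabase of reference. Neighbouring divergent spaces lay a median of 7351 bases apart on chromosome I, 7158.5 on chromosome II and 8137.8 on chromosome III. Divergent and convergent pairs must alternate along a chromosome, whatever the number of same-strand pairs between them, so their near-equal numbers (1406 and 1404) are fixed by geometry.

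The distance between the deposited starts of divergent pairs had a median of 450 bases (95% interval 399 to 508), with quartiles of 30 and 1045.5 bases. The medians were -55 bases (-68 to -43) in convergent pairs and 254.5 bases (233 to 270) in same-strand pairs, where a negative distance is an overlap. Where a gene lies wholly inside its neighbour, the size of the negative distance can exceed the number of bases shared. In 305 divergent pairs (21.7%, 19.6 to 23.9) the deposited intervals of the genes overlapped. The overlap was partial, between the 5′ parts, in 209 of them, and in 96 the right gene lay wholly inside the left one. Overlap was present in 61.8% of convergent pairs (59.3 to 64.3) and 13.9% of same-strand pairs (12.5 to 15.3). The 1099 divergent pairs with at least 1 base between them had a median of 699 bases, against 177 in convergent and 319 in same-strand pairs. The intervals of the 3 orientations did not overlap for the median over all pairs or for the share with an overlap. The medians of separated pairs have no interval, and no test of any difference was run.

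**Figure D1:**
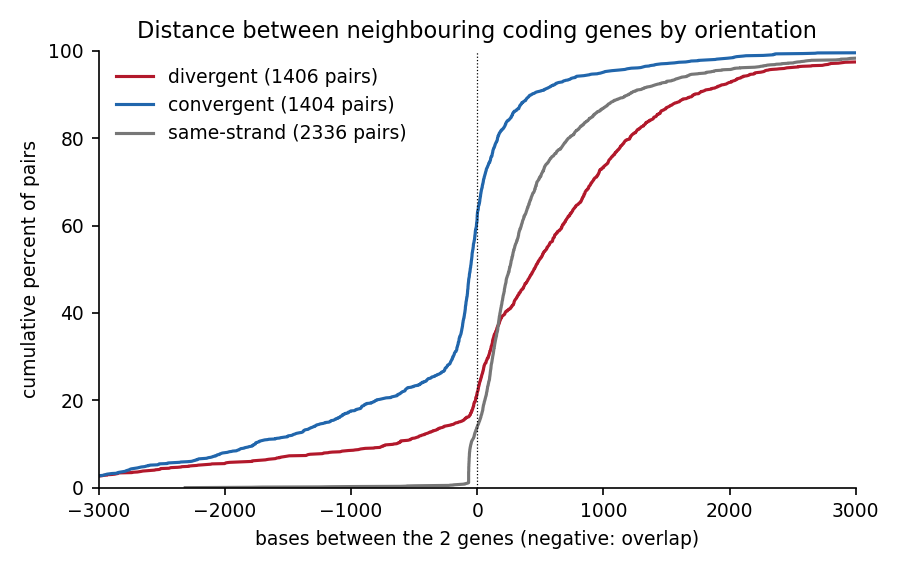
Cumulative percent of neighbouring coding gene pairs (vertical axis) against the bases between the genes (horizontal axis, central part of the range, negative for an overlap), with 1 line each for 1406 divergent, 1404 convergent and 2336 same-strand pairs. The divergent line lies furthest right at long distances, and its median is 450 bases, against -55 for convergent and 254.5 for same-strand pairs.

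By length, the class of 601 to 1200 bases was the fullest, with 320 divergent pairs (22.8%, 20.6 to 25), against 3.85% of convergent and 14.2% of same-strand pairs. A further 227 divergent pairs (16.1%) lay 1201 to 2400 bases apart and 58 (4.13%) further apart. At the short end, 248 pairs (17.6%) were separated by 0 to 200 bases. The medians were 397 bases on chromosome I (299 to 470), 483.5 on chromosome II (399 to 599) and 526 on chromosome III (403 to 705), with overlapping intervals.

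At the shortest divergent gaps, the deposited starts of mdl1, a peptide transporter, and cdc37, an Hsp90 co-chaperone, touched with 0 bases between them, as did those of leo1, a Paf1 complex subunit of the transcription machinery, and vrp1, the actin regulator verprolin. They were followed by mtg1-mis3 at 1 base, ear1-dsc5 at 2 and rtp1-lsm5 at 3. In RefSeq the same 5 pairs were 36, 124, 169, 59 and 32 bases apart, in that order. The longest gap, 9749 bases, separated rpp202, which encodes a ribosomal stalk protein P2, from emc3, and the next were gsf2-SPCC1795.12c at 6771, adg1-SPAC2H10.04 at 5870, cbm1-SPAPB2C8.01 at 5245 and puf5-SPAC4G8.04 at 4730 bases. Each of these 5 long gaps held annotated non-coding RNAs.

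Not every pair that is divergent by start order was divergent by coding sequence. Of the 1406 pairs, 1299 (92.4%, 90.9 to 93.7) were head to head by the RefSeq coding spans as well. In 84 pairs (5.97%, 4.85 to 7.34) the order of the coding spans was reversed: the left gene has an annotated 3′ part so long that it reaches past the start of its neighbour, and the coding sequences lie tail to tail. In 9 pairs the coding spans overlapped or lay inside each other, and 14 pairs were not assigned because not both genes could be matched to RefSeq on the same strands. In all 84 tail-to-tail pairs the deposited intervals overlapped, with a median of 2883.5 bases (1078 to 6305) between the crossed starts. In 79 of them the right gene lay wholly inside the left one, so the bases shared were only the length of the right gene.

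The 5 largest distances between crossed starts were all in tail-to-tail pairs: wdr70-tit1 (6305 bases), sec31-mde3 (6224), nop2-spt16 (5360), gap1-cct6 (5327) and tcb3-rpb7 (5173). In each the right gene lay wholly inside the left one, so the shared bases were only its length. These lengths were 1823, 1860, 3308, 2026 and 1031 bases, in that order. Sec31 is a coat protein of COPII vesicles and Spt16 a subunit of the histone chaperone FACT. Tail-to-tail pairs made up 84 of the 305 overlaps (27.5%), and the head-to-head pairs 207 (67.9%). Among the 1299 head-to-head pairs the median distance between deposited starts was 518 bases (465 to 575), and 207 overlapped (15.9%). In those 207 the median distance between the crossed starts was 235 bases.

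The deposited starts mostly lay further upstream than those of RefSeq, so the deposited spaces were shorter. For coding genes of divergent pairs, 99.4% of 2798 deposited 3′ ends were within 1 base of RefSeq, but only 6.43% of starts were. In 78.4% the deposited start was further upstream, and the median extension over all these genes was 44 bases (41 to 48). In the other coding genes the share was 75.3% and the median 38 bases (35 to 41).

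Over the 1392 divergent pairs with both loci in RefSeq, the median distance was 450 bases by deposited starts and 733 bases by RefSeq starts. The RefSeq distance was over 50 bases longer in 991 pairs and over 50 bases shorter in 44. Overlaps numbered 300 by the deposited starts and 117 by RefSeq, with 115 in both. Among the head-to-head pairs alone, 207 overlapped by the deposited starts and 24 by RefSeq. The median distance between their coding starts was 1045 bases, and the smallest, in mhf2-swc5, was 9 bases.

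**Figure D2:**
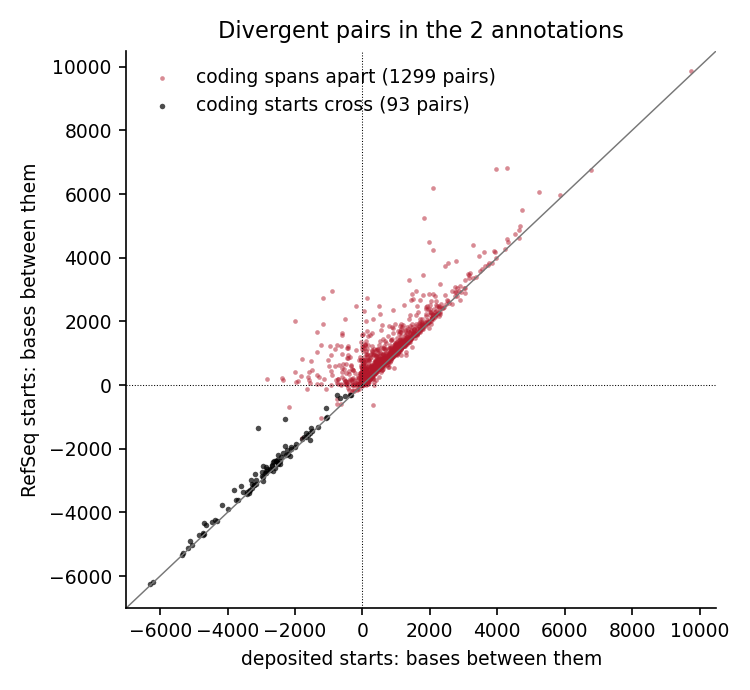
Bases between the starts of each divergent pair by RefSeq (vertical axis) against those by the deposited annotation (horizontal axis), 1 point a pair for 1392 pairs, with dotted lines at 0 and a grey line of equality. Red points are the 1299 head-to-head pairs, most of them above the line (median 790 against 518 bases), and black points are the 93 pairs whose coding starts cross, which lie below 0 on both axes.

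The spaces were not empty. Another annotated feature overlapped 399 of the 1099 separated divergent gaps (36.3%, 33.5 to 39.2), against 17.4% of convergent gaps (14.4 to 20.9) and 30.2% of same-strand gaps (28.3 to 32.3). Divergent gaps with a feature had a median length of 1169 bases, and those without one 464. The share was 9.09% among divergent gaps of 0 to 50 bases and 40% at 601 to 1200 bases. In every class up to 1200 bases the divergent share was below the same-strand share, with overlapping intervals. At 51 to 150 bases these were 9.17% (5.2 to 15.7) and 18.1% (14.5 to 22.4). At 301 to 600 bases they were 20.3% (15.3 to 26.5) and 26.6% (22.9 to 30.8). The divergent share was above the convergent one in the classes up to 300 bases and below it from 301 to 1200. At 601 to 1200 bases the convergent share was 48.1% (35.4 to 61.1) and the same-strand share 45.3% (40 to 50.7), with intervals that overlapped the divergent one (34.8 to 45.5). At 1201 to 2400 bases the divergent share was 66.5% (60.2 to 72.3), against 43.8% of 48 convergent gaps (30.7 to 57.7) and 57.1% of same-strand gaps (49.4 to 64.5), and the divergent and convergent intervals were apart. Above 2400 bases the shares were 81% of 58 divergent gaps (69.1 to 89.1), 40% of 10 convergent gaps (16.8 to 68.7) and 70.8% of 72 same-strand gaps (59.5 to 80.1). The features were 529 non-coding RNAs (317 plus-strand, 212 minus-strand), with 44 tRNA, 11 rRNA, 5 snoRNA and 3 snRNA genes.

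The spaces between RefSeq starts were poor in G and C. Over the 1214 divergent spaces of at least 50 bases the median GC content was 31.8% (31.5 to 32.1), against 29.9% in convergent (29.5 to 30.2) and 31.4% in same-strand spaces (31.2 to 31.5). These medians weigh every space equally. Pooled over all bases of the spaces, GC was 32.1% in divergent, 31.8% in convergent and 32.2% in same-strand spaces. The nuclear genome had 36.1% and coding sequence 39.6%. Around the centre of divergent spaces GC was 31.4%, and at 975 bases either side it was 37.2% and 37.3%. The core histone spaces hta1-htb1 (47.5%), hhf1-hht1 (43.2%) and hhf2-hht2 (44%) lay above the third quartile of divergent spaces, 34.3%, and hht3-hhf3 (32.8%) did not. That quartile mixes spaces of all lengths from 50 bases up. Among other short spaces, rps1602-rpl13 (102 bases) had 43.1% and rmt1-rpl31 (187 bases) 46%, while klp6-rps1902 (193 bases) had 23.8%.

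**Figure D3:**
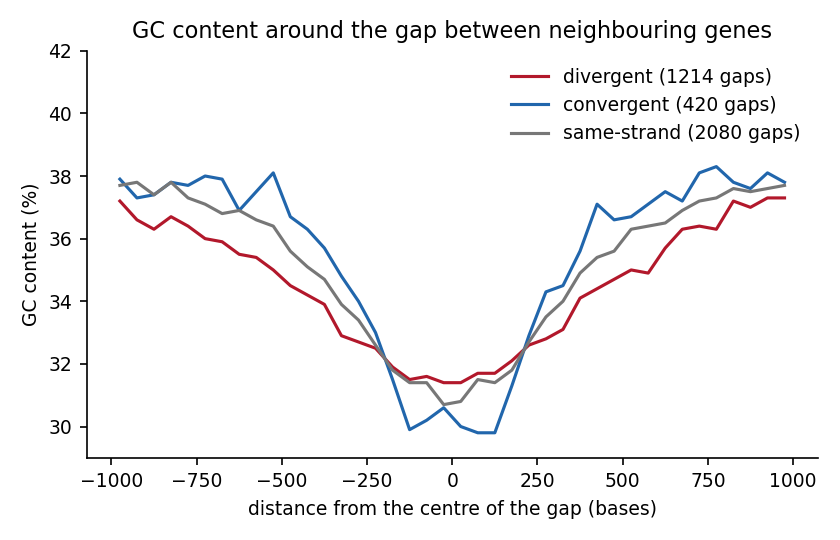
GC content in percent (vertical axis, from 29) in 50-base bins by distance from the centre of the space between RefSeq gene starts or ends (horizontal axis, bases), with 1 line each for 1214 divergent, 420 convergent and 2080 same-strand spaces. All 3 lines dip at the centre, and the divergent line stands at 31.4% beside the centre and at 37.2% and 37.3% at 975 bases.

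Short motifs were counted on both strands in 300-base windows centred on the space between RefSeq starts (1275 divergent, 536 convergent and 2161 same-strand windows). The windows hold unlike sequence. The divergent spaces had a median of 800 bases, so most of their windows left out the bases next to the starts. Separated convergent gaps had a deposited median of 177 bases, so windows there often ran into the genes. In whole divergent spaces the HomolD letters were in 67 of 1275 (5.25%). TATAAA was in 50.4% of divergent windows (47.6 to 53.1), 56.3% of convergent and 52.8% of same-strand windows. CCAAT, the site of the Php complex, was in 43.8% of divergent windows (41.1 to 46.5), 37.3% of convergent windows (33.3 to 41.5) and 41.1% of same-strand windows (39 to 43.2). AACCCT was in 10.1% of divergent (8.58 to 11.9), 8.96% of convergent and 7.96% of same-strand windows. ACGCGT was in 2.12%, 1.87% and 2.59% of windows in the same order of orientations, and the HomolD letters in 1.73%, 0.373% and 1.3%.

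Histone genes were almost all members. Of 11 genes of core and variant histones, 10 stood in divergent pairs (90.9%, 62.3 to 98.4), against 54.6% of all coding genes, and 8 of them were paired with each other. The deposited starts were 171 bases apart in hta1-htb1, 145 in hhf1-hht1, -4 in hhf2-hht2 and -2 in hht3-hhf3. RefSeq placed them 177, 132, 134 and 201 bases apart. These are the genes of histones H2A and H2B (hta1-htb1) and of H3 and H4 (the other 3 pairs). The other members were cnp1, the centromeric H3 variant CENP-A, with rpr2 (109 bases deposited, 437 in RefSeq), and pht1, the H2A.Z gene, with shy1 (1701 and 1653 bases), a gap that held tRNA and rRNA genes.

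Each of the 4 core histone spaces held exactly 2 AACCCT boxes in tandem, printed above. Among the other 268 divergent spaces of at most 250 bases, 18 (6.72%) held at least 1 and 0 held 2 or more. The boxes read AACCCT on the plus strand in hhf1-hht1 and hht3-hhf3, and on the minus strand in hta1-htb1 and hhf2-hht2. In hta1-htb1 and hhf2-hht2 they lay nearer to the right gene, htb1 or hht2, 53 and 47 bases from its RefSeq start in both. In hhf1-hht1 they were 52 and 58 bases from hhf1, and in hht3-hhf3 61 and 67 bases from hht3. So in every pair they read towards the further start, and the nearer start was that of an H2B, an H4 or an H3 gene.

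Cytosolic ribosomal protein genes were members about as often as any gene. Of 131, 70 stood in a divergent pair (53.4%, 44.9 to 61.8, against 54.6% of all), in 67 pairs. In 6 of these the coding spans were tail to tail: SPAPB17E12.14c-rpl1802, aar2-rps1401, SPBC577.03c-rpl3801, pdp1-rps902, apl1-rpl1603 and str2-rpl6. The 61 head-to-head pairs had a median RefSeq distance of 582 bases (quartiles 206 and 952), against 790 over all 1299 head-to-head pairs (290 and 1309.5), and 21 (34.4%) were at most 250 bases apart, against 22.8% of all. Both genes were in the list in rps1602-rpl13 (10 bases deposited, 102 in RefSeq), rpl35-rpl902 (48 and 203) and rps2-rps20 (484 and 490). The list was taken from RefSeq product names, which leave out some ribosomal protein genes, among them rpl701, rpl44, the genes of P1 and P2 proteins and the ubiquitin fusions, so rpl701-rps1402 (15 and 67 bases) and ubi2-rpl14 (100 and 125) count with 1 listed gene each.

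The HomolD letters were in 40 of the 61 ribosomal protein spaces (65.6%, 53 to 76.3) and in 27 of the other 1214 divergent spaces (2.22%, 1.53 to 3.22). Among spaces of at most 200 bases they were in 8 of 14 and in 0 of 215. The same letters were in 35 of 59 same-strand gaps upstream of a ribosomal protein gene (59.3%, 46.6 to 70.9) and in 28 of 2102 other same-strand gaps (1.33%). The interval of the divergent share overlapped that of the same-strand share.

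In spaces with 1 listed gene, 38 of 39 matches lay within 100 bases of the ribosomal protein gene's start, the exception being 1 of the matches in rps7-mal3. Likewise 38 of 39 lay nearer to that start than to the partner's, the exception being rpl701-rps1402, where the partner is itself a ribosomal protein gene outside the list. The median distance was 43 bases to the ribosomal protein start (quartiles 39 and 48.5) and 575 bases to the partner's start, and 27 of the 39 matches (69.2%, 53.6 to 81.4) read in the ribosomal gene's direction. In rpl35-rpl902 and rps2-rps20, with a ribosomal protein gene on either side, 1 exact match was found in each, and rps1602-rpl13 held none. The printed rps1602-rpl13 and rpl35-rpl902 spaces also hold a stretch that differs from the letters at a single end base, which was not counted. Of the 27 other spaces with the letters, several hold translation genes outside the list, seen after the values were known: rpl44, rpp201, rpp103 and ubi5, and the elongation and initiation factor genes tef101, tef103, tef3 and tif308.

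Genes of double-strand break repair and its checkpoint were members in 26 of 37 cases (70.3%, 54.2 to 82.5, against 54.6% of all). Their 26 pairs had a median deposited distance of 49.5 bases, against 450 bases over all divergent pairs. Overlaps numbered 9 of the 26, against 305 of all 1406 divergent pairs (21.7%). The 24 head-to-head pairs had a median of 79 bases by deposited starts and 429 by RefSeq starts (quartiles 160.5 and 768.8), against 518 and 790 over all head-to-head pairs. By RefSeq 9 of the 24 (37.5%) were at most 250 bases apart, against 22.8% of all. rad1 and swi5 stood in the tail-to-tail pairs SPAC1952.08c-rad1 and mis12-swi5, which are among the 9 overlaps.

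Among the checkpoint kinases, chk1 overlapped ubc11, an E2 of the anaphase-promoting complex, by 36 bases in the deposited annotation, and RefSeq left 7 bases between them. cds1, the replication checkpoint kinase, stood 47 bases from cab5 (178 in RefSeq). The gene of the ATR kinase, rad3, overlapped mxr2 by 605 bases, with 400 bases between them in RefSeq. nbs1, a gene of the Mre11 complex that binds broken ends, was 13 bases from prp17 (616 in RefSeq), and mre11 overlapped mug121 by 11 bases (156 apart in RefSeq).

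For end joining, lig4, the DNA ligase, overlapped the uracil glycosylase gene ung1 by 749 bases and lay 57 bases from it in RefSeq. pku80 overlapped npr3 by 291 bases (458 in RefSeq), while pku70 was 925 bases from pus1 (951) and xlf1 1662 bases from swt1 (2296). For strand exchange, rad55 was 659 bases from SPAC3C7.04 (702), rad57 was 23 from gpl1 (616), and sfr1 overlapped mdm12 by 12 (197). The single-strand binding complex RPA was represented by ssb1-mik1 (30 bases) and ssb3-rpm1 (705 and 708), while ssb2, the gene of the protein that was immunoprecipitated, was in no divergent pair. mik1 encodes a kinase that restrains mitosis, and the RefSeq intervals of ssb1 and mik1 shared 1 base.

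**Figure D4:**
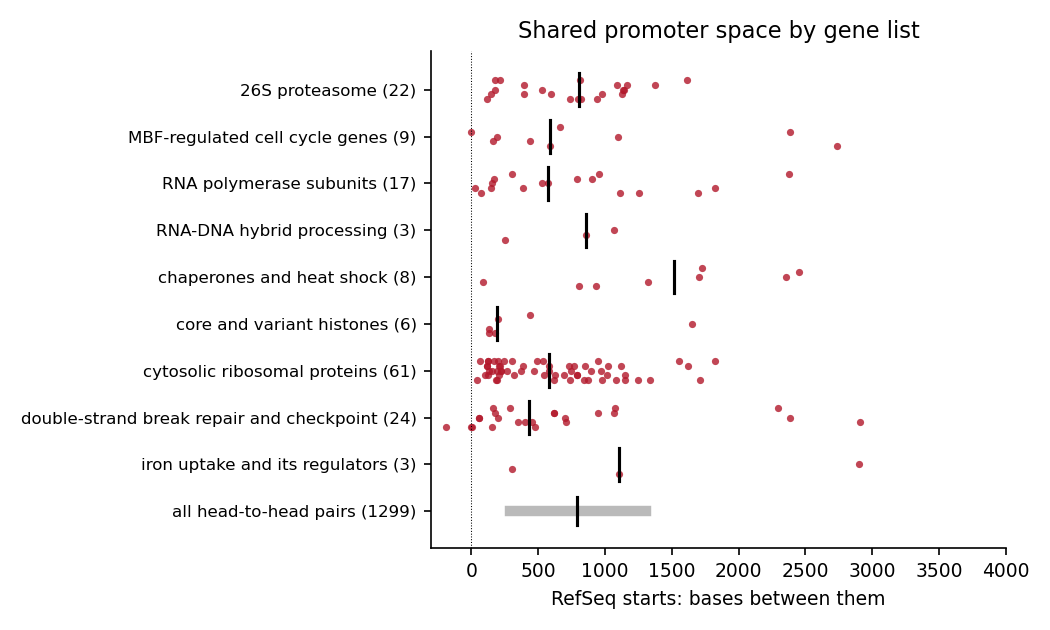
Bases between RefSeq starts (horizontal axis, without the longest) of head-to-head divergent pairs in 9 gene lists, 1 red point a pair, with the number of pairs in brackets and black bars at the medians. Small vertical offsets only separate points. The grey bar at the bottom spans the quartiles of all 1299 head-to-head pairs, 290 to 1309.5 bases; histone pairs have a median of 189, repair pairs 429 and chaperone pairs 1514.5 bases.

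Genes listed as targets of MBF were members in 10 of 15 cases (66.7%, 41.7 to 84.8), an interval that includes the 54.6% of all coding genes. ACGCGT was in 4 of the 8 spaces of listed genes between RefSeq starts and in 86 of the other 1267 divergent spaces (6.79%). Between coding starts it was in 5 of 9 and in 120 of 1290 (9.3%). The cdt2-psc3 space, between a subunit gene of a replication-linked ubiquitin ligase and a cohesin gene, held 4 elements, 44, 57, 116 and 323 bases from the RefSeq start of cdt2. The last of them was nearer to the RefSeq start of psc3, at 261 bases. In ssb1-mik1, 3 elements lay between the coding starts, 49, 59 and 84 bases from the RefSeq start of ssb1. All 3 lay past the RefSeq start of mik1, in its annotated stretch before the coding start. In wpl1-cdt1 and rpr2-cnp1 a single element lay 71 bases from cdt1 and 12 bases from cnp1.

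Iron uptake genes included 2 pairs with both partners in the list. fip1, an iron permease, and fio1, its multicopper oxidase, stood 318 bases apart (303 in RefSeq), and sib1 and sib2, which make the siderophore ferrichrome, 1034 bases apart (1108). The siderophore transporter gene str1 was 3051 bases from mrpl39 (2905), and str2 was in a tail-to-tail pair with rpl6. In all, 6 of 10 listed genes were members (60%, 31.3 to 83.2), an interval that includes the 54.6% of all coding genes. The letters of the Fep1 element, ATCAGATAA or ATCTGATAA, were in 3 of 3 iron spaces and in 57 of 1272 others (4.48%). The form ATCAGATAA alone was in 1 of the 3, mrpl39-str1, and in 28 of 1272 others (2.2%). The iron spaces were longer, with a median of 1108 bases, against 799.5 in the rest.

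Genes that act on RNA-DNA hybrids were members in 3 of 7 cases (42.9%, 15.8 to 75), an interval that includes the 54.6% of all coding genes. rnh1, which the study deleted or placed under the nmt1 promoter, stood 840 bases from sfc3, a TFIIIC subunit gene (860 in RefSeq), and that gap held 1 annotated non-coding RNA. It was the only 1 of 4 genes named in the labels that was in a divergent pair. The helicase gene sen1 overlapped syb1 by 607 bases (250 apart in RefSeq), and rnh202, a subunit gene of ribonuclease H2, was 9 bases from SPBC1347.09 (1065 in RefSeq). rnh201, nmt1 and ssb2 were in same-strand or convergent pairs only.

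Chaperone and heat shock genes were members in 8 of 15 cases (53.3%, 30.1 to 75.2), against 54.6% of all coding genes. Their median head-to-head RefSeq distance was 1514.5 bases (quartiles 901.2 and 1882.5), against 790 over all head-to-head pairs. The range ran from 87 bases in wos2-vps24 to 2456 in ipa1-mas5, and hsp104, a disaggregase gene, was 1090 bases from pcn1, the gene of the sliding clamp PCNA (1325 in RefSeq). Proteasome genes were members in 23 of 44 cases (52.3%, 37.9 to 66.2), with a median of 807 bases, and none was paired with another. RNA polymerase subunit genes were members in 21 of 31 cases (67.7%, 50.1 to 81.4), with a median of 577 bases in 17 head-to-head pairs. This interval and those of the chaperone and proteasome lists all include the 54.6% of all coding genes. In 4 pairs, those of rpb7, rpc17, rpa34 and rpb3, the coding spans were not head to head.

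Divergent partners were rarely alike in protein sequence. With blastp at an e-value of at most 1e-10, 4 of 1379 divergent pairs matched (0.29%, 0.113 to 0.743), against 0 of 1386 convergent (up to 0.276) and 19 of 2287 same-strand pairs (0.831%, 0.533 to 1.29). The 4 were SPAC11D3.14c-SPAC11D3.15, which encode oxoprolinases (53.4% identity), cat1-put4, amino acid transporters (32.4%), rgf3-rgf1, exchange factors of the GTPase Rho1 (26.4%), and pwp2-wdr83, both WD repeat proteins (23.1%).

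The break site itself did not lie in a divergent space. On modified chromosome II (ASM294v2 with the insert) the 1842-base insert ran between 1231079 and 1232920. Its cut site lay in the 1966-base gap of the same-strand pair arg6-ura5, and its end reached past the deposited start of ura5 at 1232882. Within 20 kb of the centre of the site (1231097) there were 7 divergent spaces among 19 pairs, with 6 convergent and 6 same-strand. psf2-arg6 was the nearest, 1858 bases to the left: psf2 (1228147 to 1229239), a subunit gene of the GINS replication complex, overlapped arg6 (1229152 to 1230915), which encodes acetylglutamate synthase, by 88 bases, while RefSeq left the 37 bases printed above. The right-hand gene of this pair is also the left-hand neighbour of the break.

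Next to the left came php2-nbl1 at 3336 bases, with a gap of 734 bases. php2 encodes a subunit of the CCAAT-binding complex. hob3-tsp0 followed at 6618 bases (gap 1183) and ppk31-pex5 at 14406, where the deposited gap of 19 bases became 795 in RefSeq and pex5 encodes the peroxisomal import receptor. To the right no divergent space came closer than nog1-nit1, at 9996 bases (gap 713), where nog1 encodes a GTPase of ribosome assembly. gyp10-SPBC651.04 (13952 bases, gap 1499) and dot2-mug166 (17861 bases, gap 293) lay beyond it, and dot2 encodes an ESCRT-II subunit. The left side thus held 3 divergent spaces within 10 kb and the right side 1.

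**Figure D5:**
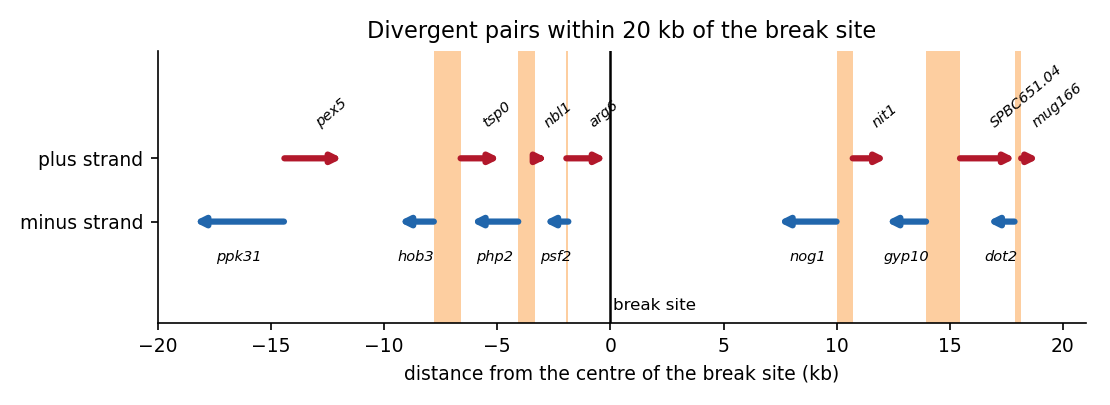
The 7 divergent pairs with a space within 20 kb of the break site, by distance from its centre in kb (horizontal axis), with plus-strand genes as red arrows above and minus-strand genes as blue arrows below, and the gap or overlap shaded orange. psf2-arg6 lies 1858 bases left of the site, and the nearest space on the right, nog1-nit1, 9996 bases away.

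The 24-base run shared by the insert and ribosomal DNA also occurred 3 times on reference chromosome III, at centres 7184, 18054 and 2446071, near the chromosome ends. The nearest divergent pair to the first and second of these was SPCP20C8.02c-SPCP20C8.03, 24336 and 13466 bases away, and to the third SPCC569.03-SPCC569.02c, 13459 bases away.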

How the data were processed

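The study's 12 ChIP-exo libraries form 6 groups of 2 by the labels. Reads were aligned with Bowtie2 (version not given in the sources used here) to a build named ASM294v2, per the submitters' processing notes. The 2 deposited files used here hold no value of any sample: an inserted sequence of 1842 bases, and an annotation of 7002 features of the modified genome whose deposited score is 0 throughout. Depth is therefore unknown, and library signal was not analysed here.

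Coding genes were the features named by a nuclear coding locus, 1 per name (5149 of 5150 entries). Adjacent pairs were classed by strand, and the gap is the number of bases between their intervals. Names were matched by locus to RefSeq ASM294v3, which gave 5132 matches, 5100 of them protein-coding. Its starts, coding spans, products and sequence were used. Sequence was read only at RefSeq coordinates. The break centre is the centre of the 24-base run shared by the insert and ribosomal DNA, in place of the recognition site. Shares have 95% Wilson intervals and medians 95% order-statistic intervals, and no test was run. The members and lists were chosen with earlier results of these data known. Named pairs are the 5 extremes at each end, pairs within 20 kb of the break, and list members. Counting was tested on simulated gene orders. Python 3.11.15, numpy 2.4.6, pandas 2.3.3, scipy 1.17.1, matplotlib 3.10.9 and blastp 2.17.0 were used.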

Additional observations from a re-analysis of the deposited data

How the results depend on the processing

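Of 51 alternatives over 21 results, 31 stayed within the interval or within 1.5 times the count, and 20 moved. The median distance between starts (450 bases) and the share of overlapping starts (21.7%) moved with the annotation used. They were 715 bases and 9.32% with RefSeq genes, and 1022 bases and 0.428% with RefSeq coding starts. Over the 954 divergent coding pairs still adjacent when all deposited nuclear features counted as neighbours, they were 187 bases and 28.7%. That setting drops coding pairs with another feature ordered between them, and divergent gaps with a feature were longer (median 1169 against 464 bases). For head-to-head pairs alone, a setting added after seeing the data, the median and the share were 518 bases and 15.9%. The share of gaps with another feature (36.3%) was 18.5% for features wholly inside the gap and 72.6% with RefSeq long non-coding RNAs. GC content (31.8%) was 31.3% in spaces of at least 300 bases. With windows of 200 and 400 bases, AACCCT was in 7.14% and 13.1%, TATAAA in 35.6% and 60%, and CCAAT in 30.7% and 53.9%. ACGCGT was in 1.25% at 200 bases. Within 10 kb of the break there were 4 divergent spaces and within 50 kb 13. Wider windows hold more sequence by construction. The share of ribosomal protein spaces with the HomolD letters, also added after seeing the data, stayed at 65.6% between coding starts and was 64.3% in spaces of at most 500 bases.

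No paired analysis was possible because no sample has a value in the data used here, and for the same reason no replicate was left out. The annotation cannot show which start a cell uses, so a short deposited distance is a property of the annotation used. A motif match is a description of letters.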
